A study of Mus musculus with 12 samples.

Results

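The classical BMP target genes Hes1, Hey1, Msx2, Dlx3, Dlx5, Gata3, Nog and Fst were followed in mouse MEC endothelial cells during a BMP6 time course. The 8 genes were chosen by name as textbook targets or feedback regulators of BMP signalling, out of 8267 genes that the arrays measured under a single symbol. Their 10 probes lay among 20280, since Dlx3 and Fst had 2 probes each. MECs are a cell line from the endothelium of the mouse embryo. The groups were mock-treated control cells, whose time of harvest the labels do not give, and cells given BMP6, a secreted bone morphogenetic protein, for 4, 12 or 24 h. Each group held 3 arrays, described as biological replicates, and 12 arrays were used in all. The RNA of the cells was labelled with Cy5 and hybridized together with Cy3-labelled universal mouse reference RNA, a pool that all 12 arrays share. Each comparison with control asked how far BMP6 moved the RNA of these genes.

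BMP ligands bind pairs of serine/threonine kinase receptors, which phosphorylate SMAD transcription factors that move to the nucleus and act with SMAD4 on target genes. In endothelial cells BMP signals are known for their part in vessel growth and in crosstalk with the Notch receptor pathway. Hes1 and Hey1 encode basic helix-loop-helix repressors best known as Notch targets. Msx2, Dlx3 and Dlx5 encode homeobox transcription factors of skeleton, skin and tooth development, and Gata3 a zinc finger factor of lymphocytes and many embryonic tissues. Nog encodes noggin, a secreted protein that captures BMPs, and Fst follistatin, a secreted protein that captures activin and some BMPs, so both act against ligands of this family.

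The values are log ratios of cells to reference, taken as log2. Neither the base of the logarithm nor the direction of the ratio is stated in the sources used here, and the direction was read from the dyes. With the opposite direction every rise here would be a fall, and with a natural logarithm every fold would be larger, while the p-values would stay. Array medians ran from -0.044 to 0.002, array SDs from 0.607 to 0.688 and correlations between arrays from 0.877 to 0.98. Gene names rest on a rule that places each platform probe in the grid of the array. Under that rule the first 2 probes of a gene correlated across 1831 genes with r = 0.471, and at the deposited row numbers with r = 0.021 (genes are not independent replicates). Every gene name here depends on that placement. In RNA from whole cultures, fewer cells of a type and less RNA per cell cannot be told apart. In control cells 0 of 8 measured endothelial markers lay above the reference RNA, with a median of -0.79 and with Sox18 highest at -0.01 ± 0.16 and the junction protein gene Cdh5 lowest at -1.62 ± 0.084 (SD, n = 3), while 4 of 7 fibroblast and mesenchymal and 4 of 8 smooth muscle markers lay above it. With the opposite direction 8 of 8 endothelial, 3 of 7 fibroblast and 4 of 8 smooth muscle markers would lie above it. So would 7 of 8 epithelial, 3 of 3 blood cell and 2 of 3 nervous system markers, of which 1, 0 and 1 lie above it as read. The opposite direction thus does not single out endothelial genes, and the ratios alone do not settle the endothelial identity that the labels give.

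None of the 8 genes passed the test at any time. Differences were tested with limma on all 8267 genes at a Benjamini-Hochberg adjusted p under 0.05, in a fit that pairs arrays with the same replicate number (called paired). At 4 h of BMP6 against control 0 of 8 members were called, where 6.02% of all genes were. At 12 h against control 0 of 8 were called, beside 1.89% of all genes, and at 24 h 0 of 8, beside 0.169%. Between times 0 of 8 were called for 12 h against 4 h (1.29% of all genes), for 24 h against 4 h (4.05%) and for 24 h against 12 h (0.109%). An F test over the 3 contrasts with control also called 0 of 8, and 4.98% of all genes. An unadjusted p under 0.05 in the paired limma fit was reached at 4 h by 2 of 8 members, Hes1 and Nog, where 21.3% of all genes reached it. At 12 h it was reached by Hes1 alone (15.4% of all genes), and at 24 h again by Hes1 alone (7.94%). Between times it was reached by 2 of 8 for 12 h against 4 h, Nog and Fst (15% of all genes), by 2 of 8 for 24 h against 4 h, Dlx3 and Nog (19.1%), and by 0 of 8 for 24 h against 12 h (8.55%).

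The fit without pairing called 0 of 8 in every comparison as well. Its unadjusted p was under 0.05 for 0 of 8 members at 4 h (7.43% of all genes), and for 1 of 8, Hes1, at 12 h (4.75%) and at 24 h (2.01%). Between times it was so for 0 of 8 for 12 h against 4 h (4.45%), for 1 of 8, Dlx3, for 24 h against 4 h (6.98%), and for 0 of 8 for 24 h against 12 h (1.84%). The methods' t-test also called 0 of 8 throughout. Its unadjusted p was under 0.05 for 0 of 8 members at 4, 12 and 24 h against control (5.73%, 3.59% and 2.12% of all genes), for Dlx3 alone at 12 h against 4 h (5.01%) and at 24 h against 4 h (6.99%), and for 0 of 8 at 24 h against 12 h (3.1%). All 3 contrasts against control use 1 set of 3 control arrays.

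All 8 members stood above 0 in their mean change at 4 h, with a median log2 change of 0.097, against 47.6% of all genes above 0 and a median of -0.006 over all genes. The count at 4 h was 7 of 8 under quantile normalization, where Dlx5 was at -0.01. It was also 7 of 8 without control replicate 1, control replicate 2 or 4 h replicate 1 (Gata3 at -0.011, -0.003 and -0.063), without control replicate 3 (Dlx5 at -0.033) and without 4 h replicate 3 (Hey1 at -0.001), and 6 of 8 without all arrays of replicate 3. At 12 h 4 of 8 and at 24 h 6 of 8 stood above 0, with median changes of 0.026 and 0.03. The sizes were small: the median size of change at 4 h was 0.097 over the members and 0.073 over all genes. Values at 4 h were higher than their paired control in every pair for 4 of 8 members, Hes1, Msx2, Nog and Fst, where 14.7% of all genes were. At 12 h this held for 2 of 8, Hes1 and Msx2 (14.7% of all genes), and at 24 h for 2 of 8, Hes1 and Hey1 (13.7%). The arrays of control and treated cells overlapped for all 8 genes at each time. Groups that did not overlap, in either direction, were found for 10.1% of all genes at 4 h, 7.27% at 12 h and 4.48% at 24 h.

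**Figure D1:**
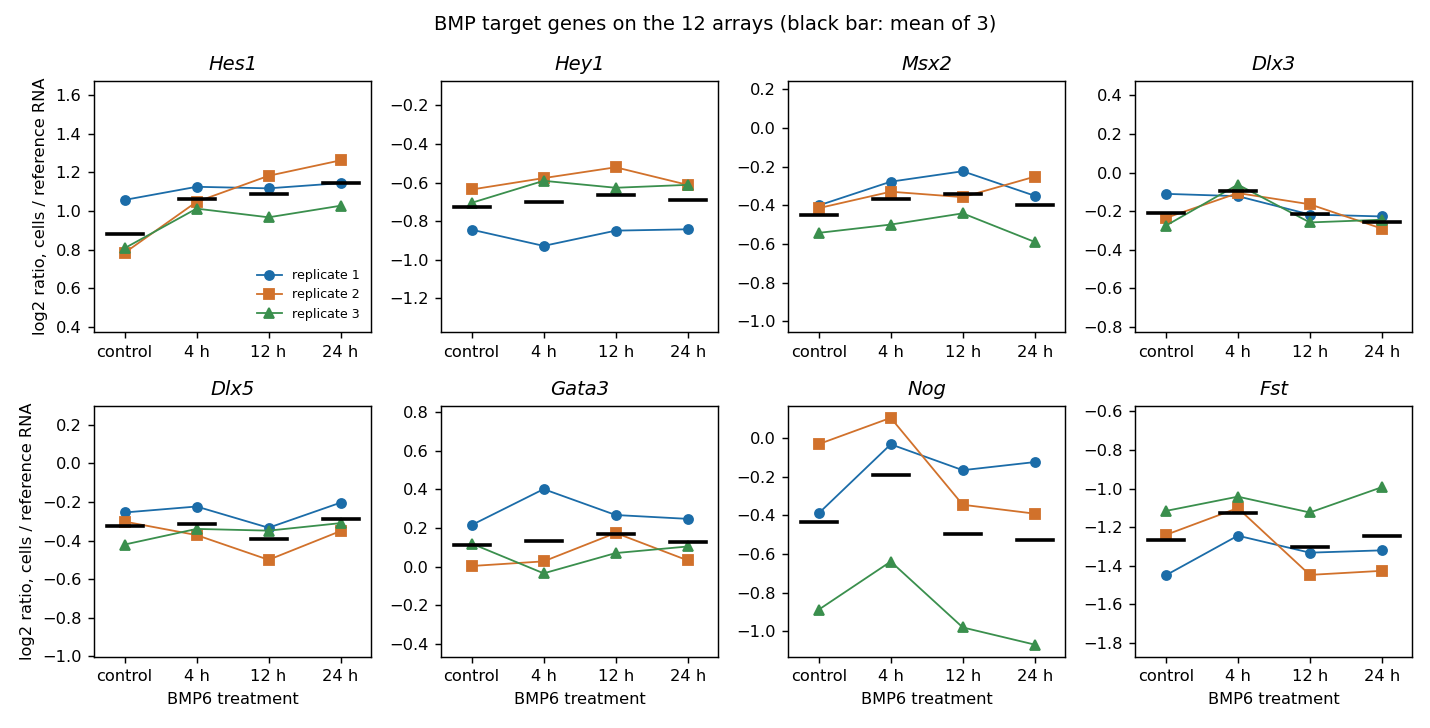
Log2 ratio of cells to reference RNA of the 8 genes on each of the 12 arrays, by treatment; lines join arrays with the same replicate number, black bars are means of 3, and every panel spans the same height. The mean of Hes1 is highest at 24 h, Nog, Fst and Dlx3 had their highest mean at 4 h, and the lines of Nog, Hey1 and Gata3 lie further apart than the treatment moves them.

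Among the Notch-linked repressors, Hes1 (chr16:30065357-30067796, GRCm38.p6) was above control in every pair without passing the test. Its log2 ratio was 1.06, 0.78 and 0.81 in control cells, 1.12, 1.05 and 1.01 at 4 h, 1.12, 1.18 and 0.97 at 12 h and 1.14, 1.26 and 1.03 at 24 h. The means were ordered control, 4 h, 12 h, 24 h, and neighbouring BMP6 times differed by less than their SDs of 0.058 to 0.118, while control replicate 1 lay within the range of the treated arrays. Hes1 changed by 0.18 at 4 h (SE 0.07, adjusted p 0.172 paired, 0.75 unpaired). At 12 h the change was 0.21 (SE 0.07, adjusted p 0.176 paired). At 24 h it was 0.26, a 1.2-fold difference with an unadjusted p of 0.00369 and an adjusted p of 0.302 paired, from limma. It was higher than its paired control in 3 of 3 pairs at each time, by 0.087, 0.48 and 0.22 at 24 h. Treatment groups held 52.5% of the variation of Hes1 over the arrays and replicate numbers 24.1%, where over all genes they held 23.4% and 55%. For Dlx3 the shares were 63.7% and 5.5%, so a large treatment share was not particular to Hes1. These are shares of sums of squares, not corrected for the number of groups. Those over all genes are pooled, so that variable genes weigh more. The lowest adjusted p of Hes1 against control under any alternative was 0.0591, at 4 h without control replicate 1, and its change at 4 h ran from 0.097 to 0.251 over the alternatives.

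Hey1 (chr3:8663359-8667038) gave no call in any comparison. It stood at -0.84, -0.64 and -0.70 in control cells, -0.93, -0.58 and -0.59 at 4 h, -0.85, -0.52 and -0.63 at 12 h and -0.84, -0.61 and -0.61 at 24 h. Replicate 1 was the lowest array of each group, and replicate numbers held 89.9% of its variation and treatment 3.1%. The changes were 0.03 at 4 h, 0.063 at 12 h and 0.04 at 24 h, each with a paired SE of 0.0495 and adjusted p-values from 0.615 to 0.888. The 95% interval at 4 h, not adjusted for the number of genes, was -0.08 to 0.14.

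Of the homeobox genes, Msx2 (chr13:53466881-53472780) lay above control in all 3 pairs at 4 h and at 12 h and in 2 of 3 at 24 h. Its log2 ratio was -0.40, -0.41 and -0.54 in control cells, -0.28, -0.33 and -0.50 at 4 h, -0.22, -0.36 and -0.44 at 12 h and -0.35, -0.25 and -0.59 at 24 h. Its mean was highest at 12 h and lowest in controls, and the groups overlapped, with SDs of 0.078 to 0.174. The changes were 0.084, 0.11 and 0.055 at 4, 12 and 24 h (paired SE 0.0555, adjusted p 0.439, 0.378 and 0.876).

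Dlx5 (chr6:6877801-6882068) gave no call in any comparison. It was at -0.26, -0.30 and -0.42 in control cells, -0.22, -0.37 and -0.34 at 4 h, -0.33, -0.50 and -0.35 at 12 h and -0.20, -0.35 and -0.31 at 24 h. Its mean was lowest at 12 h and highest at 24 h, and the groups overlapped. The changes were 0.014, -0.068 and 0.038 (SE 0.0528), with adjusted p-values of 0.918, 0.606 and 0.899. Dlx5 was lower at 12 h than at 4 h in 3 of 3 pairs, by a mean change of -0.082 (adjusted p 0.498). It was higher at 24 h than at 12 h in 3 of 3 pairs, by 0.13, 0.149 and 0.039. Hes1 and Fst were too, and the share of all genes was not counted. The mean change of Dlx5 for 24 h against 12 h was 0.11 (SE 0.0528, unadjusted p 0.072, adjusted p 0.625 paired, limma).

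Dlx3 (chr11:95120117-95125296), averaged over its 2 probes, had its highest values at 4 h. They were -0.11, -0.23 and -0.28 in control cells, -0.12, -0.11 and -0.062 at 4 h, -0.22, -0.16 and -0.26 at 12 h and -0.23, -0.29 and -0.24 at 24 h. The 4 h arrays lay above all 12 h and all 24 h arrays, while control replicate 1 fell among them. Dlx3 was the single member whose groups did not overlap for 12 h against 4 h and for 24 h against 4 h, where 9.16% and 12% of all genes did not overlap. The change was 0.11 at 4 h against control (SE 0.0532, adjusted p 0.27), -0.12 for 12 h against 4 h (adjusted p 0.336) and -0.16 for 24 h against 4 h (adjusted p 0.135 paired, 0.615 unpaired). At 24 h Dlx3 was lower than at 4 h in 3 of 3 pairs.

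Both probes of Dlx3 had their highest mean at 4 h. Probe 16264 was at -0.015, -0.19 and -0.17 in control cells, 0.065, 0.03 and 0.15 at 4 h, -0.093, -0.042 and -0.13 at 12 h and -0.063, -0.20 and -0.13 at 24 h, so that each 4 h array lay above each control array. Its change at 4 h was 0.21 (SE 0.0612, unadjusted p 0.00676, adjusted p 0.116 over the 20280 probes, limma). The average of both Dlx3 probes overlapped control at 4 h. Of all genes 10.1% did not overlap at that time, and the share over all probes was not counted. Probe 3540 changed by 0.014 at 4 h (SE 0.055, adjusted p 0.943). The difference between the probes was not tested. Their values correlated over the 12 arrays with r = 0.58, as a description, since the arrays share a reference and fall into groups.

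**Figure D2:**
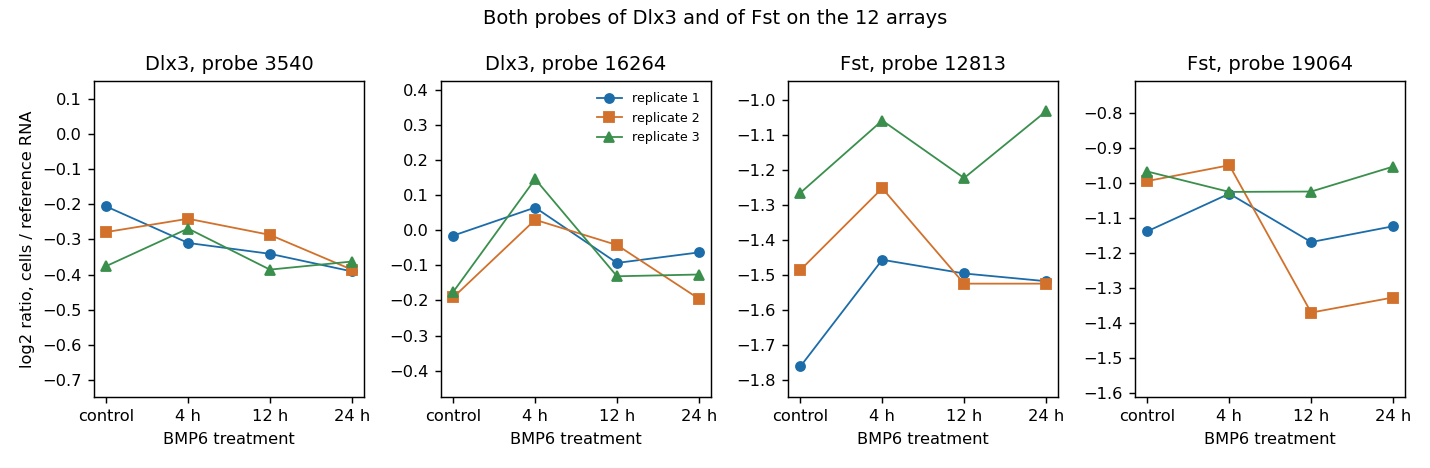
Log2 ratio of cells to reference RNA of both probes of Dlx3 and both probes of Fst on the 12 arrays, by treatment, with lines joining arrays of the same replicate number and panels of equal height. The 4 h arrays of Dlx3 probe 16264 all lie above its control arrays, and Fst probe 12813 is higher at 4 h in each pair, while Dlx3 probe 3540 and Fst probe 19064 show no such step. The share of all probes with such a step was not counted.

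Gata3 (chr2:9857078-9887953) differed more between replicate numbers than between treatments. Its log2 ratio was 0.21, 0.003 and 0.12 in control cells, 0.40, 0.027 and -0.035 at 4 h, 0.27, 0.17 and 0.07 at 12 h and 0.25, 0.032 and 0.10 at 24 h. Replicate 1 was the highest array of every group, and the 4 h pairs went both ways, by 0.19, 0.024 and -0.15. The changes were 0.019, 0.058 and 0.015 at 4, 12 and 24 h (SE 0.068, adjusted p 0.915, 0.753 and 0.974).

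The promoters of Gata3 and Msx2, which gave no call under BMP6, are shown because they are the 2 of 8 members that matched the RefSeq promoter table (GRCm38.p6, 250 bases before to 50 after the start, minus strand, chr2:9878551-9878850 and chr13:53472731-53473030). Capitals mark GGCGCC, a GC-rich motif known to bind SMAD proteins of the BMP branch, and GTCT or its other strand AGAC, the core SMAD element, searched on both strands.
Gata3: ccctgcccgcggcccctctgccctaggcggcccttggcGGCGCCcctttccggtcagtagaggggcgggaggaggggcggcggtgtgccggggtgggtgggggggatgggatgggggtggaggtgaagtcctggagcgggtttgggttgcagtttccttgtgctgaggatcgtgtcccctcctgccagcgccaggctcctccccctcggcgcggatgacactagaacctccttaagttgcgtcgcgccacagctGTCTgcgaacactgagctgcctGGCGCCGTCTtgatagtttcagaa
Msx2: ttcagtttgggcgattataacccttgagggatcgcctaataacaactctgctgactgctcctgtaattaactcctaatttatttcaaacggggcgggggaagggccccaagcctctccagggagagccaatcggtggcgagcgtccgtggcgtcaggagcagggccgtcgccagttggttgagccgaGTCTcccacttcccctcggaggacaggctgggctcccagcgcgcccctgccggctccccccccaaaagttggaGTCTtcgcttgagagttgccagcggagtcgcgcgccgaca

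The Gata3 promoter held GGCGCC 2 times and GTCT or AGAC 2 times, and a GTCT follows a GGCGCC directly without overlap. The Msx2 promoter held GGCGCC 0 times and GTCT or AGAC 2 times. Of all 32851 promoters of this length, 11.9% held GGCGCC and 88% held GTCT or AGAC. The Gata3 start in that table lies inside the gene's annotated span and not at its end. These matches describe the letters of the window, and binding was not measured.

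Nog (chr11:89300638-89302559), the BMP antagonist, had the widest spread of the 8 genes and, with all arrays, the largest estimated change at 4 h. Its log2 ratio was -0.39, -0.031 and -0.89 in control cells, -0.032, 0.10 and -0.64 at 4 h, -0.17, -0.34 and -0.98 at 12 h and -0.12, -0.39 and -1.07 at 24 h. Replicate 3 was the lowest array of each group, and replicate numbers held 80.1% of the variation. At 4 h Nog was higher than control in 3 of 3 pairs, by 0.36, 0.14 and 0.25, with a mean change of 0.25 or 1.19-fold (SE 0.101, unadjusted p 0.034, adjusted p 0.187 paired, limma). Without control replicate 1 the change of Nog was 0.122, below Hes1 at 0.251 and Dlx3 at 0.159, and without all arrays of replicate 1 it was 0.19, below Hes1 at 0.234. Without pairing the SE was 0.304 and the adjusted p 0.982. At 12 h and 24 h the changes against control were -0.061 and -0.092 (adjusted p 0.832 and 0.884).

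Nog was lower at the later times than at 4 h in all 3 pairs. The change for 12 h against 4 h was -0.31 (SE 0.101, adjusted p 0.184 paired, 0.999 unpaired), with pair differences of -0.13, -0.45 and -0.34. For 24 h against 4 h it was -0.34, a ratio of 0.79 (unadjusted p 0.00707, adjusted p 0.0924 paired, 0.999 unpaired, limma). This comparison gave the only call of a member under any alternative: Nog passed without control replicate 1 (change -0.339, adjusted p 0.0431) and without the 4 arrays of replicate 1 (change -0.463, adjusted p 0.0292). Lower in all 3 pairs for 12 h against 4 h were 4 of 8 members, Dlx3, Dlx5, Nog and Fst, beside 19.1% of all genes, and for 24 h against 4 h 2 of 8, Dlx3 and Nog, beside 18.6%. Higher in all 3 pairs for 24 h against 4 h were also 2 of 8, Hes1 and Dlx5, beside 21.9% of all genes.

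Fst (chr13:114452262-114458989) had its highest mean at 4 h, as Nog did, with a smaller change. The average of its 2 probes was -1.45, -1.24 and -1.12 in control cells, -1.24, -1.10 and -1.04 at 4 h, -1.33, -1.45 and -1.12 at 12 h and -1.32, -1.43 and -0.99 at 24 h. All groups overlapped. The change was 0.14 at 4 h (SE 0.0753, adjusted p 0.334), -0.033 at 12 h and 0.022 at 24 h (adjusted p 0.887 and 0.967). Probe 12813 was higher at 4 h than control in each pair, at -1.46, -1.25 and -1.06 at 4 h against -1.76, -1.49 and -1.26 in control cells (change 0.25, SE 0.0729, unadjusted p 0.00664, adjusted p 0.115 over all probes, limma). Of all genes 14.7% were higher in all 3 pairs at 4 h, and the share over all probes was not counted. Probe 19064 changed by 0.031 (SE 0.0887, adjusted p 0.912). The difference between these probes was not tested. After the mean of each replicate number was removed, Nog and Fst correlated with r = 0.77 over the 12 arrays, the highest of the 28 pairs of members, which ran from -0.43 to 0.77 and are given as a description.

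**Figure D3:**
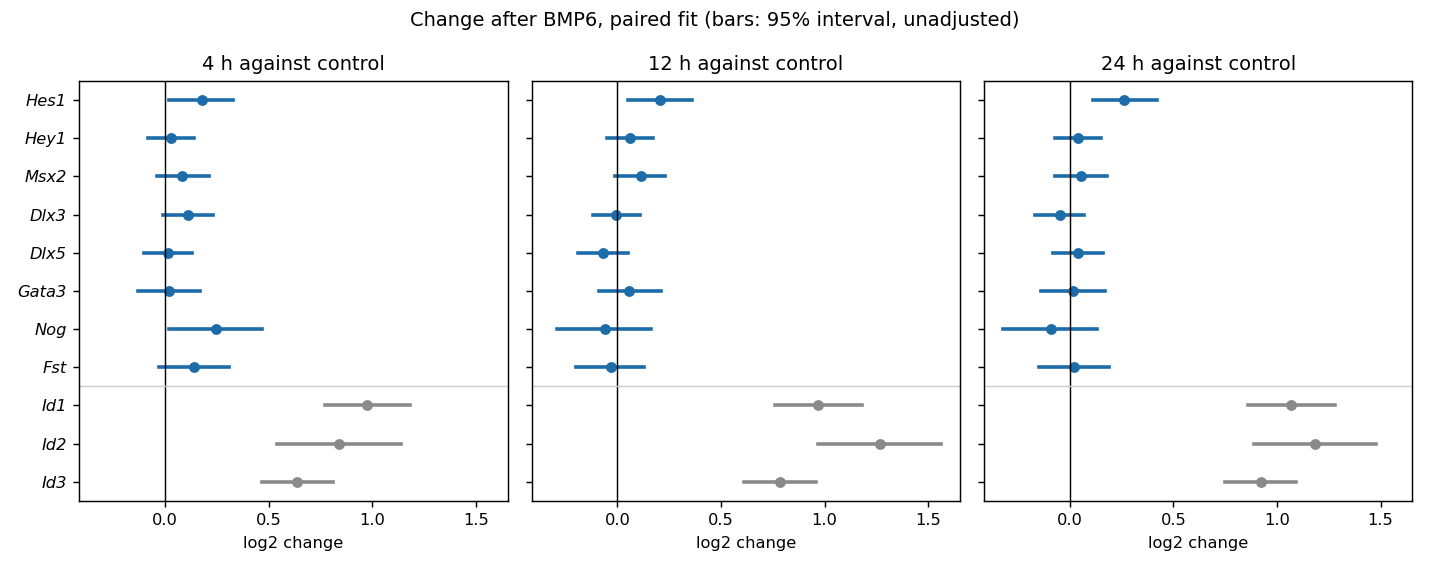
Log2 change at 4, 12 and 24 h of BMP6 against control in the paired fit, for the 8 genes (blue) and for Id1, Id2 and Id3 (grey), with points for estimates and bars for 95% intervals that are not adjusted for the number of genes. The intervals of the 8 genes end at 0.47 or below, and those of the Id genes start at 0.47 or above.

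The intervals limit the size of change in the measured ratios, averaged over a gene's probes. They bound the RNA of a gene only as far as its probes detect it, which could not be judged. At 4 h the upper 95% limits in the paired fit ran from 0.13 for Dlx5 to 0.47 for Nog, at 12 h from 0.05 for Dlx5 to 0.36 for Hes1 and at 24 h from 0.07 for Dlx3 to 0.42 for Hes1. Lower limits reached down to -0.13 for Gata3 at 4 h, and for Nog to -0.29 at 12 h and -0.32 at 24 h. Without pairing, the widest interval at 4 h was that of Nog, from -0.42 to 0.91, and the other 7 ended at 0.42 or below. The unpaired interval of Nog was -0.73 to 0.61 at 12 h and -0.76 to 0.58 at 24 h. On the same arrays the inhibitors of differentiation Id1, Id2 and Id3, direct BMP targets, changed by 0.98, 0.84 and 0.64 at 4 h, with 95% intervals of 0.77 to 1.18, 0.54 to 1.14 and 0.47 to 0.81. They passed the test in the paired fit at all 3 times, but none passed without pairing (adjusted p 0.2, 0.302 and 0.274 at 4 h). The 24 h call of Id2 ended when any of 4 arrays was left out: control 1 (0.0602), control 2 (0.0612), 24 h replicate 2 (0.0738) or 24 h replicate 3 (0.072). Without all arrays of replicate 2, Id2 and Id3 missed the threshold at each time (0.137, 0.139 and 0.443 for Id2, 0.0806, 0.0809 and 0.129 for Id3), and Id1 at 24 h (0.0686). Without those of replicate 1, Id1 missed it at 12 h (0.0547) and 24 h (0.0822), and without those of replicate 3 all of Id1, Id2 and Id3 did at 24 h (0.0502 each). The difference between the Id genes and the 8 genes was not tested.

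In a list of 28 further BMP targets, 13 had a named probe. At 4 h 5 of the 13 rose and 0 fell, where 6.02% of all genes were called in either direction. The median change of the 13 was 0.053, against -0.006 over all genes. The risers were Id1, Id2, Id3, the transcription repressor gene Snai1 with a change of 0.79 (adjusted p 0.00243) and Ptgs2, the gene of cyclooxygenase 2, with 1.35 (adjusted p 0.00177). At 12 h 4 rose, the same genes without Ptgs2 (1.89% of all genes called), and at 24 h Id1, Id2 and Id3 (0.169%). Snai1 at 12 h changed by 0.63 (adjusted p 0.0145), a call that ended on leaving out control 1 (0.0509), control 2 (0.101), 12 h replicate 1 (0.0952) or 12 h replicate 2 (0.084). Without all arrays of replicate 2 the calls of Ptgs2 (0.0786) and Snai1 (0.105) at 4 h and of Snai1 at 12 h (0.273) ended, and the last ended also without those of replicate 1 (0.117). Of these 13, 1 was called without pairing at 4 h, Ptgs2 (adjusted p 0.0229). This list holds genes already known to respond in these data.

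Among relatives of the 8 genes, 2 homeobox genes were called. Of 6 measured DLX, MSX and related homeobox genes outside the 8, Dlx1 rose and Prrx1, a mesenchymal homeobox gene, fell at 4 h and at 12 h. Of all genes 6.02% were called at 4 h and 1.89% at 12 h, in either direction. Dlx1 was at 0.44, 0.23 and 0.19 at 4 h against -0.058, -0.13 and -0.094 in control cells, a change of 0.38 (SE 0.0634, adjusted p 0.00698 paired, 0.164 unpaired). At 12 h Dlx1 changed by 0.37 (adjusted p 0.0199). Leaving out control 1 (0.0602), control 2 (0.0606) or any 12 h array (0.114, 0.0662 and 0.0638) ended that call. Prrx1 was at 0.31, 0.028 and 0.059 at 4 h against 0.87, 0.65 and 0.36 in control cells, a change of -0.49 (SE 0.0829, adjusted p 0.00754 paired, 0.195 unpaired). At 12 h Prrx1 changed by -0.495 (adjusted p 0.0173), a call lost on leaving out control 1 (0.0601), control 2 (0.109), 12 h replicate 1 (0.0955) or 12 h replicate 2 (0.105). With all arrays of a replicate number left out, the 4 h calls ended without replicate 1 (0.0531 for Dlx1, 0.0517 for Prrx1) and without replicate 2 (0.132 and 0.181). The 12 h calls ended without replicate 1 (0.196 and 0.198), without replicate 2 (0.214 and 0.295) and, for Dlx1, without replicate 3 (0.0572).

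Prrx1 is also on the list of fibroblast and mesenchymal markers. Of these 3 of 7 fell and 0 rose at 4 h, where 6.02% of all genes were called in either direction. This list, like the other lists here, was chosen with earlier results of these data known. Its count is therefore not independent of the data, and an excess over that share was not tested. The others were Cdh11 (-0.445, adjusted p 0.0251) and Col3a1 (-0.239, 0.0363), an adhesion protein and a collagen gene. Of the other marker lists, 1 of 8 endothelial markers rose, the receptor gene Flt1 (0.231, 0.0366), 1 of 8 smooth muscle markers rose, Cnn1 (0.248, 0.0135), and 1 of 3 nervous system markers fell, Map2 (-0.284, 0.0204). Among 8 epithelial and 3 blood cell markers 0 were called by limma, and 0 reached an unadjusted p under 0.05 in the paired fit, without pairing or by the methods' t-test. The calls of Cdh11, Col3a1, Flt1, Cnn1 and Map2 all ended without control replicate 2 (0.0676 to 0.125) or 4 h replicate 2 (0.072 to 0.147), and those of the 4 genes other than Cnn1 without control replicate 3 (0.0602 to 0.0986) or 4 h replicate 3 (0.0624 to 0.138). Col3a1 and Flt1 each passed on leaving out 3 of 12 single arrays, and their calls ended also without any 12 h array (0.0551, 0.0564 and 0.0653 for Col3a1, 0.0592, 0.0605 and 0.0659 for Flt1). Col3a1 further missed the threshold without 4 h replicate 1 (0.0769) or 24 h replicate 1 (0.0595), and Flt1 without control replicate 1 (0.0746), without 24 h replicate 3 (0.0586) or under quantile normalization (0.0512). The part of cell type composition in the values of the homeobox genes was not tested.

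The lists held 5 measured HES and HEY relatives and 3 genes of the GATA family and its cofactors. Of these 0 were called by limma at 4, 12 or 24 h (6.02%, 1.89% and 0.169% of all genes). The median changes at 4 h were -0.011 and 0.132. At 4 h 0 HES and HEY relatives and 2 of the GATA list reached an unadjusted p under 0.05 in the paired fit, beside 21.3% of all genes. Without pairing and by the methods' t-test 0 and 0 did (7.43% and 5.73% of all genes). The closest paralog measured to Msx2, Msx1, changed by 0.053 at 4 h (adjusted p 0.708).

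Of the antagonists like Nog and Fst, 4 of 20 listed were measured and 0 were called by limma at any time (2 of 4 at an unadjusted p under 0.05 at 4 h paired, beside 21.3% of all genes, 0 unpaired and 0 by the methods' t-test), with a median change of 0.174 at 4 h and -0.007 at 12 h. They included the follistatin relative Fstl3 at 0.17 (adjusted p 0.0823) and Fstl1 at 0.21 (adjusted p 0.202) at 4 h, both named after their values were seen. Above 0 stood 3 of 4 at 4 h, 1 of 4 at 12 h and 3 of 4 at 24 h, beside 47.6%, 49.3% and 47.4% of all genes. An unadjusted p under 0.05 in the paired limma fit was reached by 1 of 4 at 12 h (15.4% of all genes). Over all genes 6.02% were called at 4 h, in either direction, a share to set beside the counts that follow. Among 12 ligands, 1 rose at 4 h: Inhba, which encodes the activin subunit that follistatin binds, by 0.67 (SE 0.116, adjusted p 0.00837 paired, 0.403 unpaired). Among 9 receptors, 1 rose at 4 h: Acvr1, a BMP type I receptor, by 0.32 (SE 0.0486, adjusted p 0.00446 paired, 0.0671 unpaired). Of 10 SMAD mediators and SMAD ubiquitin ligases, 1 rose at 4 h: Skil, which encodes a SMAD corepressor, by 0.57 (adjusted p 0.000293 paired, 0.0501 unpaired). Skil rose at 12 h by 0.33 (adjusted p 0.00891), and lost that call when control 2 (0.0606), 12 h replicate 1 (0.0586) or 12 h replicate 2 (0.0655) was left out. With all arrays of a replicate number left out, Inhba lost its call without replicate 2 (0.145) or 3 (0.0609), Acvr1 without replicate 2 (0.116), and Skil at 12 h without replicate 1 (0.147) or 2 (0.214), while Skil at 4 h passed in each case (0.0126, 0.0374 and 0.0103).

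Of 19 measured Notch pathway genes, the pathway upstream of Hes1 and Hey1, 0 were called by limma at 4 h and at 24 h and 1 fell at 12 h. The share of all genes called was 6.02%, 1.89% and 0.169% at 4, 12 and 24 h. At 4 h and 24 h 1 and 2 of the 19 reached an unadjusted p under 0.05 paired, beside 21.3% and 7.94% of all genes, 0 and 1 unpaired (7.43% and 2.01%), and 1 and 0 by the methods' t-test (5.73% and 2.12%). Their median changes were 0.026, -0.009 and 0.041. The gene that fell was Psen2, a catalytic subunit of the protease that releases the Notch intracellular domain, with a change of -0.26 (SE 0.0478, adjusted p 0.0261 paired, 1 unpaired). Its call was lost on leaving out control 1 (0.0587), control 2 (0.0672), any 12 h array (0.141, 0.13 and 0.0957) or 24 h replicate 1 (0.0528), and without all arrays of any replicate number (0.211, 0.273 and 0.0761).

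The genes with the course most like each member were taken from Pearson correlations over the 12 arrays, after the mean of each replicate number was removed, and are given without a test. The highest r was that of Dlx3 with Adam8, a cell surface protease, at 0.982, followed for Dlx3 by Zfp330 at 0.959. Nog was closest to the tyrosine phosphatase gene Ptpre (0.964) and to Csnk1g1 (0.92), and Fst to Hivep2 (0.925) and the survival factor Mcl1 (0.909). Hes1 was closest to the lectin receptor gene Clec4d (0.938) and to Vti1a (0.889). Among the genes named in this paragraph only Clec4d was called against control, at 4 h and 12 h (limma adjusted p 0.0319 and 0.0384 paired). With single arrays left out these calls held in 5 and 2 of 12 fits. Dlx5 was closest to Ap2b1 (0.943) and Lman2l (0.906), Hey1 to Rabl2 (0.914) and Pla2g6 (0.877), Msx2 to Cdca5 (0.903) and Lrp11 (0.902), and Gata3 to Ptpn7 (0.892) and Fam222b (0.888).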

How the data were processed

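Cell RNA and reference RNA were hybridized to 12 Agilent mouse development arrays, scanned with a GenePix instrument and, per the labels' design text, put through a quantile-based local normalization by the authors. The deposited log2 values (base and sign unstated) hold 1 ratio per probe and array, with no missing value, and no spot intensities, so detection could not be judged, and precision is limited by how many arrays there are. Groups and replicate numbers came from the titles. Probes were placed by the grid rule and named from the platform annotation: of 11083 listed probes 10576 had 1 symbol (10548 matched by gene ID to RefSeq, 28 kept as listed) and 507 had several and were not used. A gene is the mean of its probes.

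limma 3.58.1 in R 4.3.3 was fitted to the 12 arrays (lmFit, eBayes, two-sided) with the replicate number as a block, over 8267 genes and, for single probes, over 20280, with Benjamini-Hochberg adjustment across all of them. Pairing followed the title numbers: over all probes, the 18 correlations of deviations between same-numbered arrays of different groups ran from 0.443 to 0.695, and between other numbers from -0.564 to 0.069. What arrays of 1 number have in common is not stated. The design text calls the replicates independent and biological, and p-values measure the spread between these arrays. The paired fit is the main one because the members' rule pairs arrays by number; the study's own test was unpaired. Intervals are 95% from limma's moderated SE. The scripts were tested on simulated data. Alternatives were no block, quantile normalization, median centring, the median of probes, a variance trend together with robust moderation, the compared groups alone, the methods' t-test, the probe table (each member's probe with the lowest p), and leaving out arrays or replicate numbers. Named genes were the 8 members, up to 5 called genes per list, the 2 most correlated genes per member and the extreme genes of marker lists; Fstl1, Fstl3, Msx1, Ibsp, Col2a1 and the called markers were added after their values were seen. Members and lists were chosen with earlier results of these data known.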

Additional observations from a re-analysis of the deposited data

How the results depend on the processing

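The count of 0 called members held in every comparison under no replicate block, quantile normalization, median centring, the median of probes, a variance trend with robust moderation, the compared groups alone, the methods' t-test and the probe table. With arrays or replicate numbers left out it ran from 0 to 1 for 24 h against 4 h, where Nog was called, and stayed at 0 in the other comparisons. The t-test and the fit on the compared groups give no F test. Over all genes the replicate block mattered more: without it 14, 0 and 0 genes were called at 4, 12 and 24 h against control, compared with 498, 156 and 14, and 0, 6 and 0 between times, compared with 107, 335 and 9 (F test 4 against 412). The methods' t-test called 0, 1 and 0 against control and 0, 1 and 0 between times after adjustment. The compared groups alone gave 81, 26 and 8, and 0, 109 and 6. The variance trend with robust moderation called 5 genes for 24 h against 12 h, and centred arrays 6. The probe table called 109 probes at 12 h, 4 at 24 h, and 20 and 4 for 12 h against 4 h and 24 h against 12 h. Quantile normalization called 163 genes for 12 h against 4 h, and moved the share of higher calls to 37.2% from 25% at 12 h against control, and to 33.7% from 20.6% for 12 h against 4 h. Leaving out arrays or replicate numbers gave 20 to 642 genes at 4 h, 3 to 288 at 12 h, 0 to 16 at 24 h, 0 to 264, 6 to 545 and 0 to 28 between times, and 2 to 527 in the F test. The lowest counts at 4 and 12 h came without the 4 arrays of replicate 2.

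Of 1104 recomputed member changes (48 values under 23 alternatives), 59 changed sign, all at an adjusted p of 0.541 or more and all for changes of at most 0.092 in size. Under quantile normalization the signs turned for Dlx5 at 4 h (-0.01), Fst at 12 h (0.009) and Gata3 at 24 h against 4 h (0.008). With arrays left out, changes at 4 h spanned -0.013 to 0.086 for Hey1, -0.033 to 0.064 for Dlx5 and -0.065 to 0.105 for Gata3. At 12 h they spanned -0.045 to 0.044 for Dlx3, -0.203 to 0.065 for Nog and -0.107 to 0.055 for Fst. At 24 h they spanned -0.007 to 0.106 for Msx2, -0.086 to 0.002 for Dlx3, -0.009 to 0.088 for Dlx5, -0.016 to 0.067 for Gata3, -0.27 to 0.042 for Nog and -0.035 to 0.126 for Fst. For 12 h against 4 h they spanned -0.027 to 0.063 for Hes1, -0.006 to 0.068 for Hey1 and -0.024 to 0.126 for Gata3. For 24 h against 4 h they spanned -0.029 to 0.041 for Hey1, -0.091 to 0.014 for Msx2 and -0.074 to 0.079 for Gata3. For 24 h against 12 h they spanned -0.007 to 0.102 for Hes1, -0.042 to 0.011 for Hey1, -0.068 to 0.002 for Dlx3, -0.081 to 0.011 for Gata3, -0.144 to 0.042 for Nog and -0.003 to 0.129 for Fst. The cause was not tested.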

Other observations

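Markers of the bone and cartilage programme that BMPs are known to start were not called by limma. Calls over all genes made up 6.02%, 1.89% and 0.169% at 4, 12 and 24 h. Of 16 listed, 6 were measured (Ibsp, Sparc, Col1a1, Col1a2, Col2a1 and Phex), and their median changes were -0.116, -0.098 and -0.16 at 4, 12 and 24 h. An unadjusted p under 0.05 was reached by 0, 0 and 2 of the 6 paired, beside 21.3%, 15.4% and 7.94% of all genes, by 0, 0 and 1 unpaired (7.43%, 4.75% and 2.01%), and by 1, 1 and 0 in the methods' t-test (5.73%, 3.59% and 2.12%). At 24 h 0 of 6 stood above 0, where 47.4% of all genes did. The bone sialoprotein gene Ibsp was at -0.285 (limma adjusted p 0.484) and the cartilage collagen gene Col2a1 at -0.153 (adjusted p 0.731). Both were named after their values were seen. Col1a1 and Col1a2 are also on the list of fibroblast and mesenchymal markers. Of that list 2 of 7 stood above 0 at 24 h, with a median change of -0.115.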
